A study of Mus musculus with 12 samples.

Results

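Lung cells that carry the surface protein CD11c were compared between mice without the type I interferon receptor (IFNAR-/-) and wildtype mice at day 14 after infection with the lung fungus Pneumocystis. The comparison took 6 of the 12 arrays of the study, 3 from IFNAR-/- day 14 mice and 3 from wildtype day 14 mice, and covered all 18193 genes measured. The other 6 arrays, 3 from IFNAR-/- and 3 from wildtype mice at day 7, entered the estimate of the spread and a test of whether the genotype difference had changed by day 14. Every mouse of both genotypes had received Pneumocystis into the trachea, so no group was uninfected. Cells of both genotypes were released from the lung with collagenase and taken with magnetic beads against CD11c, at a stated purity above 90% with lymphocytes below 5%. Each array held the RNA of 1 mouse. Age, sex and strain background, and which part of the receptor is disrupted, are not given in the sources used here. The question in the series' text is where the type I interferon response begins, with CD11c+ cells as the candidate, and what it does to inflammation once the fungus starts to be cleared.

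Type I interferons, chiefly interferon alpha and interferon beta, bind a receptor made of IFNAR1 and IFNAR2. The receptor activates a transcription factor complex that switches on interferon-stimulated genes, many of which restrict viruses, and it also restrains some inflammatory genes. In the lung CD11c is carried by alveolar macrophages and by dendritic cells, which take up microbes, present antigen to T cells and release cytokines and chemokines. Values below are log2 ratios of a gene to about its own median over the 12 arrays, so a value of 0 is a typical array and a value of 1 is a doubling. They compare arrays for 1 gene and do not rank genes by abundance. Differences are IFNAR-/- minus wildtype at day 14 on the log2 scale with limma's standard error (SE; n = 3 arrays per group), and a gene is said to have risen or fallen where the Benjamini-Hochberg adjusted p over all genes was under 0.05. In sorted bulk cells, fewer cells of a type and less RNA per cell cannot be told apart.

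Control signals separated the genotypes at day 14 before any gene was tested. The first was the 5' over 3' signal, the mean of actin's and Gapdh's 5' minus 3' control probe sets, which drops as RNA degrades. It was 0.12, 0.06 and 0.16 (log2) in IFNAR-/- mice, against -0.24, -0.18 and -0.91 in wildtype mice. The poly-A spike-in signal was 0.17, -1.75 and -0.20 in IFNAR-/- mice, against -2.11, -1.94 and -3.48 in wildtype mice, and the 18S ribosomal signal was -0.25, 0.92 and -0.45 against 2.50, 0.30 and 0.93. The 5' over 3' signal did not overlap between genotypes, nor did the poly-A signal, and fits with each of them as a covariate are given with the counts. IFNAR-/- mouse 2 stood apart by its spread, with an interquartile range over all genes of 0.56, against 0.17 to 0.34 in the other 5 arrays. Its hybridisation spike-in signal was 1.23, against -0.07 and -0.15 in IFNAR-/- mice 1 and 3 and 0.74, -0.05 and 0.24 in wildtype mice. Mouse 2 was also the IFNAR-/- array nearest to wildtype in many inflammatory genes. The marker of the sort, Itgax (CD11c), had log2 ratios of 0.00, -0.03 and 0.09 in IFNAR-/- mice, against -0.15, -0.21 and -0.25 in wildtype mice, a difference of 0.22 ± 0.13 (adjusted p 0.345). Ratios do not show whether the defining markers of a cell type were abundant or near background.

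**Figure D1:**
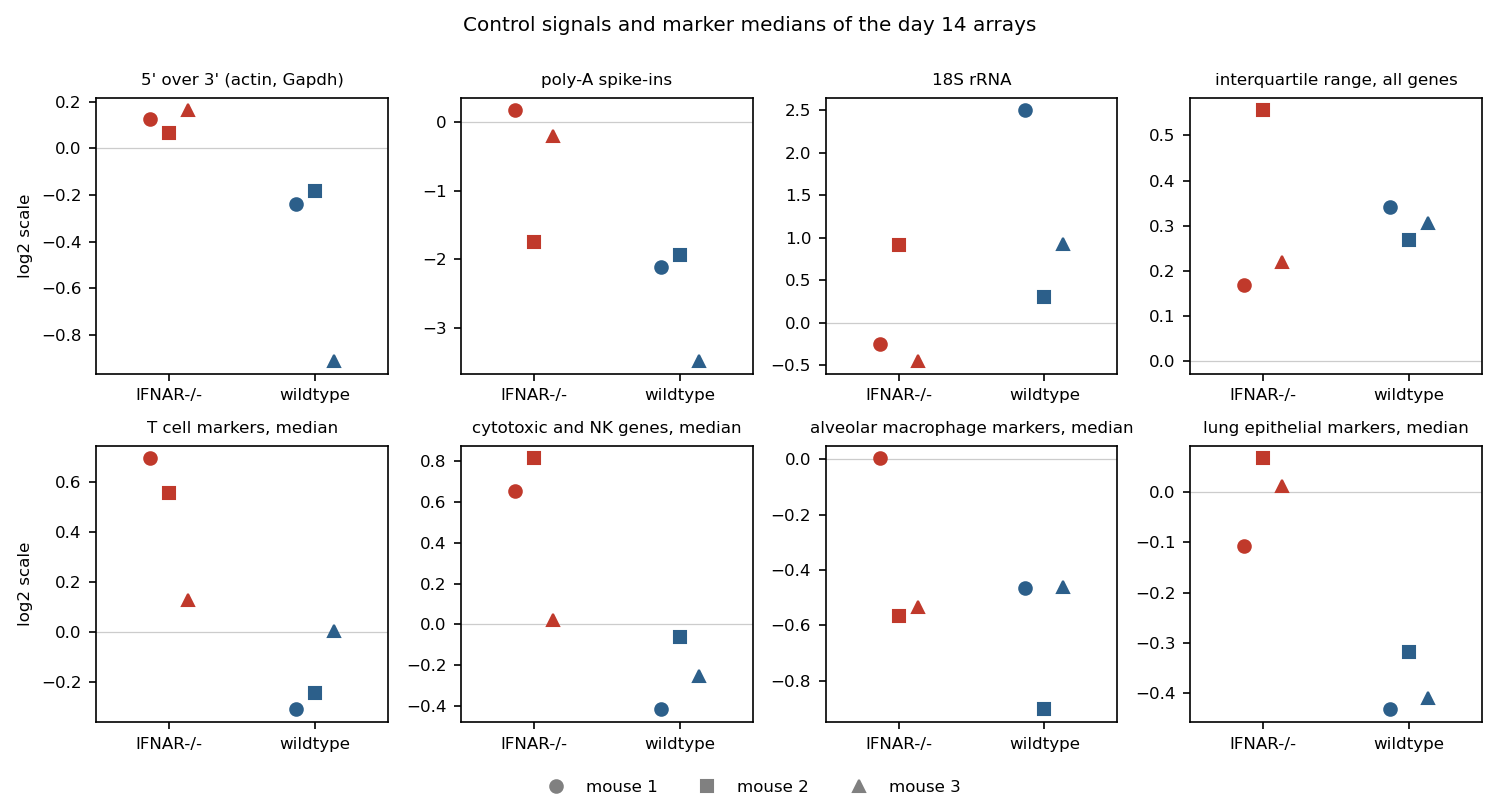
Control signals (upper row, log2 of the ratio, and the interquartile range of log2 ratios over all genes) and medians of marker lists (lower row, log2 ratio) for each day 14 array, with IFNAR-/- mice on the left and wildtype mice on the right of each panel and 1 symbol per mouse. The 5' over 3' signal lay at 0.06 or above in IFNAR-/- mice and at -0.18 or below in wildtype mice, and T cell marker medians ran from 0.13 to 0.69 in IFNAR-/- mice and from -0.31 to 0.00 in wildtype mice.

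In the limma fit 917 genes passed (5.04% of 18193). Of these 318 were higher (1.75%) and 599 lower (3.29%) in IFNAR-/- cells. The median difference was 0.96 among higher and -0.72 among lower calls, and 155 genes in each direction differed by at least 1. Day 14 arrays of the genotypes did not overlap for 23.4% of all genes, 10.2% higher and 13.3% lower, and a difference above 0 was seen for 50.5%, with a median over all genes of 0.00. Adding the 5' over 3' signal to the fit left 37 genes past the threshold, of which 36 belonged to the 917, and no gene of the 917 turned its sign. Adding the poly-A signal instead left 592 of the 917. Among the genes named below, the fit with 5' over 3' retained the rises of Il1b, Il1a, Cxcl2, Ccrl2, Cybb, Fpr2, Slc39a2, Bckdhb and Fam241b. It retained the falls of Car9, Ctsl, Folr2, Ptger2, Pdgfc, Prdx2, Slc36a2, Ddx4, Msx3, Scn3a, Gtsf1, Cdk20 and G530011O06Rik. With each day 14 array left out in turn, 384 to 794 genes passed, and 233 of the 917 (84 higher, 149 lower) passed every time. Calls that 1 array could end are given with their gene or with the count of their list. A gene with several probe sets is their average. In some genes named below only 1 of them, or none, passed by itself, also where this is not said with the gene. Examples with only 1 were Hfe, Hk1, Irak3, Ly6e, Mt1, Nfkb2 and Pdgfa, and with none Hyou1, Ndufb8 and Slc25a20. The gene lists described below share members, so their counts overlap. Each count of a list is to be read beside 1.75% higher and 3.29% lower over all genes. With the 5' over 3' signal in the fit the interleukin-1 list kept 2 rises, and no other list kept more. No list had more than 1 fall in that fit.

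**Figure D2:**
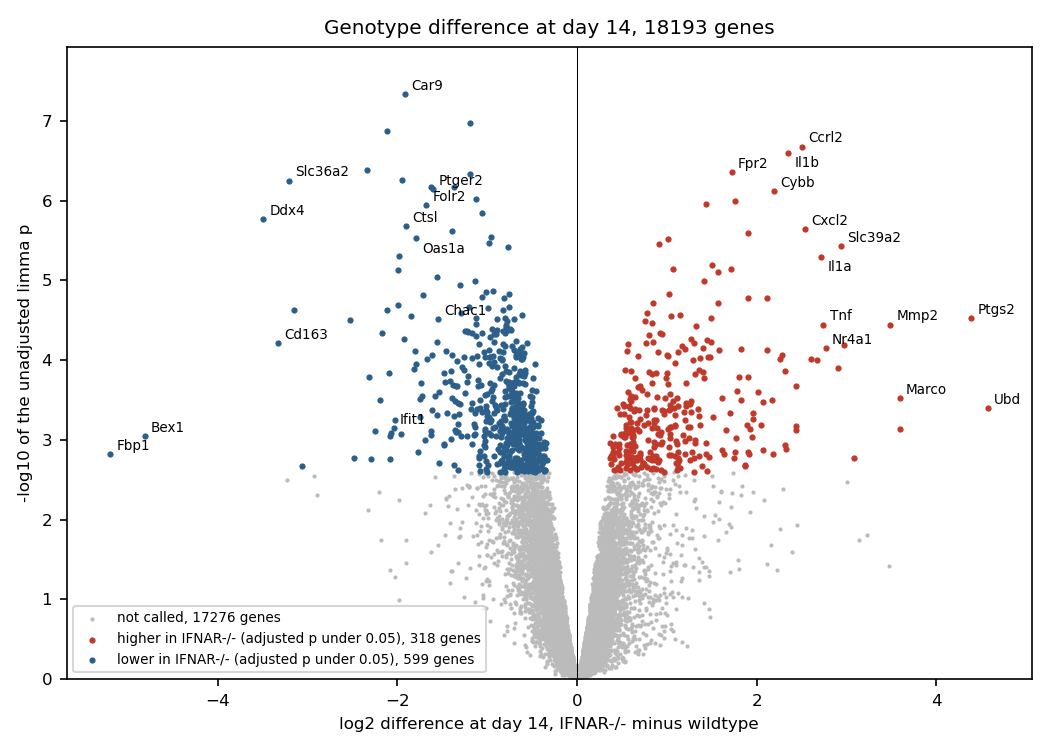
Each point is 1 of 18193 genes, with its log2 difference at day 14 (IFNAR-/- minus wildtype) on the horizontal axis and -log10 of its unadjusted limma p on the vertical axis. Red points are the 318 genes higher and blue points the 599 genes lower in IFNAR-/- cells at an adjusted p under 0.05; higher calls included Ubd at 4.58 and Ptgs2 at 4.39, lower calls Fbp1 at -5.20 and Bex1 at -4.82.

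Ifnar1, the gene of the receptor chain whose loss defines the mice, did not separate the genotypes at day 14. Its log2 ratios were 0.10, -1.01 and 0.39 in IFNAR-/- mice, against -0.15, 0.07 and 0.12 in wildtype mice, a difference of -0.19 ± 0.35 (adjusted p 0.821). The groups overlapped, and its 2 probe sets pointed in opposite directions, at -0.80 and 0.43. The sign of the average turned to 0.23 without IFNAR-/- mouse 2. A probe set outside the disrupted part would not register the loss, and which part each probe set reads is not given in the sources used here, so these values do not check the labels. Ifnar2, the partner chain, differed by -0.33 ± 0.20 (adjusted p 0.38), again with probe sets of opposite sign. Ifnb1, the gene of interferon beta, had -0.20, 0.31 and -0.08 in IFNAR-/- mice, against -0.55, 0.04 and 0.20 in wildtype mice, a difference of 0.11 ± 0.34 (adjusted p 0.897). At day 7 Ifnb1 had been 3.03 ± 0.34 higher in IFNAR-/- cells (adjusted p 0.000908), and the change between the days, -2.92 ± 0.48, passed (adjusted p 0.0141).

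Genes that flank Ifnar1 on chromosome 16 can differ between lines when a disrupted allele is carried in DNA of another strain, so the 100 measured genes nearest to it, 50 on each side, were counted. Kcnj15, a potassium channel gene, and the keratin-associated Krtap26-1 rose and Scaf4, a regulator of transcription termination, fell, which is 2.0% higher and 1.0% lower, beside 1.75% and 3.29% of all genes. The median was -0.01. Kcnj15 had 0.46, -0.26 and 0.01 in IFNAR-/- mice, against -1.32, -1.66 and -1.50 in wildtype mice, and it was 1.57 ± 0.22 higher at day 14 and 2.71 ± 0.22 higher at day 7 (adjusted p 0.00653 and 0.000142). Every IFNAR-/- array lay above every wildtype array. Kcnj15 averaged 3 probe sets, at 3.50, 0.85 and 0.35, and only the first passed by itself. It passed whichever day 14 array was left out, while Krtap26-1 at 0.54 ± 0.13 did not without 1 array other than IFNAR-/- mouse 1 (highest adjusted p 0.0986), nor Scaf4 at -0.38 ± 0.09 without any 1 of the 6 arrays (highest adjusted p 0.141). Kcnj15 did not pass after another quantile normalization (1.37, adjusted p 0.102) or with the 5' over 3' signal in the fit (adjusted p 0.109), and Krtap26-1 passed after that normalization (adjusted p 0.0169) but not with that signal (0.119).

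Of 52 interferon-stimulated genes 6 were lower in IFNAR-/- cells at day 14. Promoters of Oas1a and Ifit1 are shown because both genes fell and both hold the interferon-stimulated response element, the DNA motif bound by the factor that IFNAR activates. Each line gives 120 bases of the promoter around its matches, 5' to 3' on the gene's strand, from RefSeq on GRCm38.p6 (chr5:120907478-120907597, minus strand, and chr19:34640739-34640858, plus strand), with motif matches in capitals.
Oas1a: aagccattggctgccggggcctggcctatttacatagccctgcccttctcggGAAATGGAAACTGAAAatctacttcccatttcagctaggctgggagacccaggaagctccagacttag
Ifit1: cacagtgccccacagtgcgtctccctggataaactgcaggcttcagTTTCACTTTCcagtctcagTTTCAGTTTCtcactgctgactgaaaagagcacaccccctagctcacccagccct
The letters searched were GAAA, any 2 bases and GAAA on both strands, and overlapping matches run together in capitals. The matches lie on the gene's strand in Oas1a and on the opposite strand in Ifit1. In promoter windows of 250 bases before to 50 after the start, 3.44% of all 32851 promoters held the motif, and 3.63% of the 14452 measured genes with a promoter in the table. It was held by 18 of 253 higher genes (7.11%) and 15 of 498 lower genes (3.01%).

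Oas1a, which senses double-stranded RNA, had -0.97, -1.0 and -1.47 in IFNAR-/- mice, against 0.61, 0.56 and 0.77 in wildtype mice. The groups lay more than 1.5 apart, and the difference of -1.79 ± 0.21 (adjusted p 0.00201) passed whichever array was left out. Ifit1, which binds viral RNA, had -2.85, -1.69 and -3.05 in IFNAR-/- mice, against -0.04, -0.89 and -0.53 in wildtype mice. Its difference of -2.04 ± 0.44 (adjusted p 0.0266) did not pass without 1 array other than IFNAR-/- mouse 2 (highest adjusted p 0.083). Ifi27l2a, a mitochondrial interferon-induced protein, fell by 2.10 (SE 0.37) and the Schlafen gene Slfn8 by 1.48 (SE 0.26). Usp18, which removes the ubiquitin-like protein ISG15 and dampens receptor signalling, differed by -1.62 ± 0.36 and Trim30d by -1.62 ± 0.36 (adjusted p 0.0274 and 0.0284); both were chosen after their values were seen. Of 52 measured type I interferon-stimulated genes these 6 fell and Ly6e rose by 0.83 (SE 0.20), which is 11.5% lower and 1.92% higher. Ly6e did not pass without 1 array other than IFNAR-/- mouse 3 (highest adjusted p 0.134). Without 1 array 3 to 7 fell. The list median was -0.35, and 38 of the 52 members had a difference below 0. It was -0.12 with 3 falls where the poly-A signal entered the fit, and -0.53 with 0 falls where the 5' over 3' signal did. Medians by array were -0.27, -0.30 and -0.52 in IFNAR-/- mice, against -0.02, -0.07 and -0.15 in wildtype mice, and the genotypes did not overlap. Irf7, the factor that amplifies interferon production, had -0.89, -0.57 and -1.48 in IFNAR-/- mice, against -0.10, 0.06 and -0.27 in wildtype mice, a difference of -0.88 ± 0.36 (adjusted p 0.195). Rsad2 at -1.36 ± 0.38 (adjusted p 0.0652), Irf9 at -0.61 ± 0.18 (0.0739) and Mx1 at 0.08 ± 0.30 (0.922) did not pass and were chosen after their values were seen.

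Of 14 interleukin-1 family and receptor genes 5 rose, and so did tumour necrosis factor. Il1b, the main secreted interleukin-1 of macrophages, had 0.30, -0.56 and 0.42 in IFNAR-/- mice, against -2.08, -2.52 and -2.29 in wildtype mice. Il1a, its relative that is released by damaged cells, had 0.48, -0.41 and 0.36 in IFNAR-/- mice, against -3.21, -2.68 and -1.82 in wildtype mice. In both genes all wildtype arrays lay more than 1 below the lowest IFNAR-/- array, which was mouse 2. The rises were 2.35 ± 0.21 for Il1b (adjusted p 0.000904) and 2.72 ± 0.33 for Il1a (0.00279). Tnf had 0.66, -1.09 and 0.42 in IFNAR-/- mice, against -3.35, -2.49 and -2.41 in wildtype mice, with mouse 2 again the lowest of the IFNAR-/- arrays, and rose by 2.74 ± 0.42 (adjusted p 0.00807). These 3 genes passed whichever array was left out. Il18, a cytokine that drives interferon gamma release, rose by 1.96 ± 0.40 and its receptor chain Il18r1 by 1.61 ± 0.31. Il18 did not pass without wildtype mouse 2 or wildtype mouse 3 (highest adjusted p 0.0754) and Il18r1 not without IFNAR-/- mouse 1, wildtype mouse 1 or wildtype mouse 3 (highest adjusted p 0.0582). Il1rn, which blocks the interleukin-1 receptor, differed by 1.12 ± 0.26 (adjusted p 0.0329, chosen after its value was seen), while the signalling receptor Il1r1 itself fell by 0.60 (SE 0.13) and did not pass without IFNAR-/- mouse 1, wildtype mouse 2 or wildtype mouse 3 (highest adjusted p 0.0865). The 2 probe sets of Il1r1 were at -1.115 and -0.08, and only the first passed by itself. The 5 rises were 35.7% of the measured members, with a median of 0.72, and without 1 array 2 to 4 rose.

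Among 30 other cytokine genes Fasl, Tnf, Il12a, Osm and Ifng rose (16.7%), and 0 fell in limma (1 lower at an unadjusted p under 0.05). Il12a, which encodes the p35 chain shared by interleukin-12 and interleukin-35, had 2.64, 2.53 and 2.69 in IFNAR-/- mice, against -0.39, 0.66 and 0.28 in wildtype mice. The IFNAR-/- arrays lay within 0.2 of each other, and the rise of 2.44 ± 0.45 (adjusted p 0.0153) passed whichever array was left out. Its partner chain Il12b, chosen after its value was seen, differed by 0.76 ± 0.40 (adjusted p 0.317). Osm, a cytokine of the interleukin-6 family, rose by 1.70 ± 0.35 and did not pass without 1 array other than IFNAR-/- mouse 2 (highest adjusted p 0.0714). Il6 had 0.47, -3.11 and 0.17 in IFNAR-/- mice, against -3.72, -3.41 and -2.13 in wildtype mice. IFNAR-/- mouse 2 lay among the wildtype arrays, the groups overlapped, and the difference of 2.26 ± 0.77 did not pass (adjusted p 0.117). Of 10 components of the inflammasome, which processes interleukin-1, 0 rose in limma (1 higher at an unadjusted p under 0.05) and Casp4, the caspase that senses bacterial lipopolysaccharide, fell by 1.55 (SE 0.32), a call that ended without 1 array other than IFNAR-/- mouse 1 (highest adjusted p 0.0692).

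Of 33 chemokine genes 7 rose, among them Cxcl1, Cxcl2 and Cxcl3, which attract neutrophils. The promoters of these 3 are shown because the genes lie close together on chromosome 5, all 3 rose, and each holds the same match to the kappa B site, the motif of the NF-kB factors. The windows of 120 bases are on the plus strand of GRCm38.p6 from RefSeq (chr5:90891119-90891238, chr5:90903747-90903866 and chr5:90785973-90786092), with the match in capitals.
Cxcl1: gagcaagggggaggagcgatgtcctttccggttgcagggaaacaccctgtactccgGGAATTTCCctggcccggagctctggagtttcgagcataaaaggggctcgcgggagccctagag
Cxcl2: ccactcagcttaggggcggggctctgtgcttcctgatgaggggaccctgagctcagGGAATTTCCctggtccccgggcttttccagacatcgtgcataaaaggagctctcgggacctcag
Cxcl3: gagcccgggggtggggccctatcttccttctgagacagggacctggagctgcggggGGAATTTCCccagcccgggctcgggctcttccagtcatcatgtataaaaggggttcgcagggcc
The letters searched were exactly GGAATTTCC on both strands, so sites with other letters were not counted. They were held by 0.317% of all 32851 promoters and 0.429% of the 14452 measured genes. Of 253 higher genes with a promoter 6 held them (2.37%), namely Cxcl1, Cxcl2, Cxcl3, Icam1, Ier3 and Tnfaip3, and of 498 lower genes 5 did (1.00%). The 6 include the 3 neighbouring genes shown, which were picked for this match.

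Cxcl1 had 0.24, -2.14 and 0.00 in IFNAR-/- mice, against -3.63, -3.84 and -3.14 in wildtype mice, and Cxcl2 had 0.00, -1.23 and -0.16 in IFNAR-/- mice, against -3.24, -3.27 and -2.51 in wildtype mice. IFNAR-/- mouse 2 lay between the other IFNAR-/- arrays and the wildtype arrays in both genes, and the groups did not overlap. The rises were 2.91 ± 0.51 and 2.54 ± 0.29 (adjusted p 0.0123 and 0.00189). Cxcl3, chosen after its value was seen, differed by 1.32 ± 0.30 (adjusted p 0.0304). Cxcl13, which attracts B cells, had 1.43, 0.90 and 0.68 in IFNAR-/- mice, against -1.12, -1.48 and -1.71 in wildtype mice and rose by 2.44 ± 0.53, though it did not pass without any 1 of the 6 arrays (highest adjusted p 0.091). Cxcl14 rose by 1.24 ± 0.28 and did not pass without 1 array other than IFNAR-/- mouse 2 or wildtype mouse 2 (highest adjusted p 0.0848). Ccl3, chosen after its value was seen, differed by 1.12 ± 0.27 (adjusted p 0.0369). The monocyte attractant Ccl12 was the only one of 33 chemokines to fall, by 2.29 (SE 0.56), and did not pass without 1 array other than IFNAR-/- mouse 3 (highest adjusted p 0.109). Ccl2 and Ccl7, which also attract monocytes and were chosen after their values were seen, differed by -0.76 ± 0.34 and -1.32 ± 0.55 (adjusted p 0.23 and 0.2). The 7 rises were 21.2% of the chemokines, and without 1 array 2 to 5 rose, fewest without IFNAR-/- mouse 1.

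Of 18 chemokine receptor genes 7 rose and 1 fell. Ccrl2, an atypical receptor that binds chemerin, had -0.03, -0.36 and -0.18 in IFNAR-/- mice, against -2.55, -2.63 and -2.89 in wildtype mice. Its arrays were tight within each genotype and 2.50 ± 0.22 apart (adjusted p 0.000904). Cxcr6 and Cxcr3, receptors of effector T cells, rose by 2.26 ± 0.38 and 1.42 ± 0.19. Cx3cr1, the fractalkine receptor of monocytes and some dendritic cells, had 0.30, 0.51 and 0.36 in IFNAR-/- mice, against -0.71, -0.55 and -0.63 in wildtype mice and rose by 1.02 ± 0.14 (adjusted p 0.00583). Xcr1, the receptor of cross-presenting dendritic cells, rose by 1.62 ± 0.38 and Ccr7, which guides cells to lymph nodes, by 0.78 ± 0.20, but they did not pass without 1 array other than IFNAR-/- mouse 2 (highest adjusted p 0.0993) and without 1 array other than wildtype mouse 3 (highest adjusted p 0.147). Ccr6, chosen after its value was seen, differed by 0.81 ± 0.19 (adjusted p 0.0369). Ccr1, a receptor of monocytes and neutrophils, had -0.17, -0.72 and -0.24 in IFNAR-/- mice, against 0.41, 0.76 and 0.90 in wildtype mice and fell by 1.06 (SE 0.17, adjusted p 0.00844). The 2 probe sets of Ccr1 were at -1.77 and -0.36, and only the first passed by itself. The shares of the list were 38.9% higher and 5.56% lower, and without 1 array 4 to 6 rose.

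In the prostaglandin and leukotriene pathway 2 enzymes rose (7.69%) and 2 receptors fell (7.69%). Ptgs2, the inducible cyclooxygenase, had 1.28, -0.87 and 1.33 in IFNAR-/- mice, against -4.67, -2.86 and -3.88 in wildtype mice. The lowest IFNAR-/- array, mouse 2, lay nearly 2 above the highest wildtype array, and the rise of 4.39 ± 0.65 (adjusted p 0.00761) passed whichever array was left out. Ptges, which makes prostaglandin E2 from the cyclooxygenase product, rose by 0.95 ± 0.15 (adjusted p 0.00844). Ptger2, a receptor of prostaglandin E2, had -0.79, -1.34 and -0.85 in IFNAR-/- mice, against 0.35, 0.70 and 0.80 in wildtype mice, without overlap, and fell by 1.61 (SE 0.16, adjusted p 0.000995). Ptgir, the prostacyclin receptor, fell by 2.09 (SE 0.51) and did not pass without any 1 of the 6 arrays (highest adjusted p 0.116). The other 22 of 26 members did not pass, and the list median was 0.02. At day 7 Ptges had also been higher, by 1.31 ± 0.15 (adjusted p 0.00101), while Ptgs2 had been at -1.22 ± 0.65 (0.486) and Ptger2 at 0.53 ± 0.16 (0.131).

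Immediate-early genes, which cells switch on within minutes of a stimulus, held the largest share of calls of any of the 54 lists, with 13 of 29 higher (44.8%) and 0 lower in limma (0 lower at an unadjusted p under 0.05). Nr4a1, an orphan nuclear receptor, had 0.10, -2.05 and 0.04 in IFNAR-/- mice, against -3.34, -3.24 and -3.64 in wildtype mice, and Fosb, a subunit of the AP-1 factor, had -0.07, -1.69 and -0.04 in IFNAR-/- mice, against -2.37, -3.12 and -3.13 in wildtype mice. In both genes IFNAR-/- mice 1 and 3 lay near 0, mouse 2 lay between them and the wildtype arrays, and the groups did not overlap. They rose by 2.77 ± 0.45 and 2.28 ± 0.38 (adjusted p 0.0101 and 0.0104). Btg2, an inhibitor of proliferation, rose by 1.40 ± 0.25 and Dusp2, a phosphatase that switches off MAP kinases, by 1.31 ± 0.21. The other 9, chosen after their values were seen, were Egr1 at 1.32 ± 0.24, Klf2 at 1.46 ± 0.35, Dusp5 at 1.66 ± 0.36, Ier3 at 1.34 ± 0.27, Nr4a2 at 1.26 ± 0.31, Zfp36 at 0.98 ± 0.19, Atf3 at 0.86 ± 0.18, Csrnp1 at 0.65 ± 0.12 and Maff at 0.64 ± 0.16. Medians of the list were 0.08, -0.35 and 0.06 in IFNAR-/- mice, against -0.87, -0.71 and -0.63 in wildtype mice. The wildtype arrays and IFNAR-/- mouse 2 lay below 0, and IFNAR-/- mice 1 and 3 lay near it. Of the 29 members 27 had a difference above 0 and 21 did not overlap between genotypes, beside 10.2% of all genes. Without 1 array 6 to 17 rose. The count was 6 without IFNAR-/- mouse 3, wildtype mouse 2 or wildtype mouse 3, and 17 without IFNAR-/- mouse 2. Where the 5' over 3' signal entered the fit 0 of the 29 rose, with a median of 0.69, and 10 rose where the poly-A signal did. The list's median difference was 0.69 at day 14 and -0.11 at day 7. Collagenase digestion and sorting preceded RNA extraction in all mice, and the part of handling in these genes was not tested.

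Genes that NF-kB switches on and that feed back on it gave 8 rises of 20 (40%), with 0 falls in limma (1 lower at an unadjusted p under 0.05) and a median of 0.51. Tnfaip3, the enzyme A20 that ends NF-kB signalling, had 0.23, -0.90 and 0.45 in IFNAR-/- mice, against -2.68, -1.85 and -2.04 in wildtype mice and rose by 2.12 ± 0.35 (adjusted p 0.0102). Nfkbiz, a nuclear cofactor needed for part of the response, had 0.19, -1.78 and 0.21 in IFNAR-/- mice, against -3.29, -3.14 and -2.97 in wildtype mice and rose by 2.67 ± 0.45 (0.0104). Mouse 2 was the lowest IFNAR-/- array in both and stayed above the wildtype arrays. Tnfaip2 had 0.13, 0.10 and -0.09 in IFNAR-/- mice, against -1.04, -1.0 and -0.86 in wildtype mice, with the means 1.02 ± 0.12 apart (adjusted p 0.00201), and the NF-kB subunit Nfkb2 rose by 0.68 ± 0.11. Traf1, Icam1, Nfkbie and Tnip1, chosen after their values were seen, differed by 1.13 ± 0.29, 0.89 ± 0.19, 0.79 ± 0.19 and 0.78 ± 0.15. Without 1 array 5 to 8 members rose. The fit with the 5' over 3' signal left 0 rises of the 20, at a median of 0.68, and that with the poly-A signal 5. Of 13 SOCS and STAT genes Stat4, which carries the interleukin-12 signal, rose by 1.09 ± 0.23 and the signalling inhibitor Socs6 fell by 1.71 (SE 0.24); Stat4 did not pass without 1 array other than IFNAR-/- mouse 1 or wildtype mouse 3 (highest adjusted p 0.0754).

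**Figure D3:**
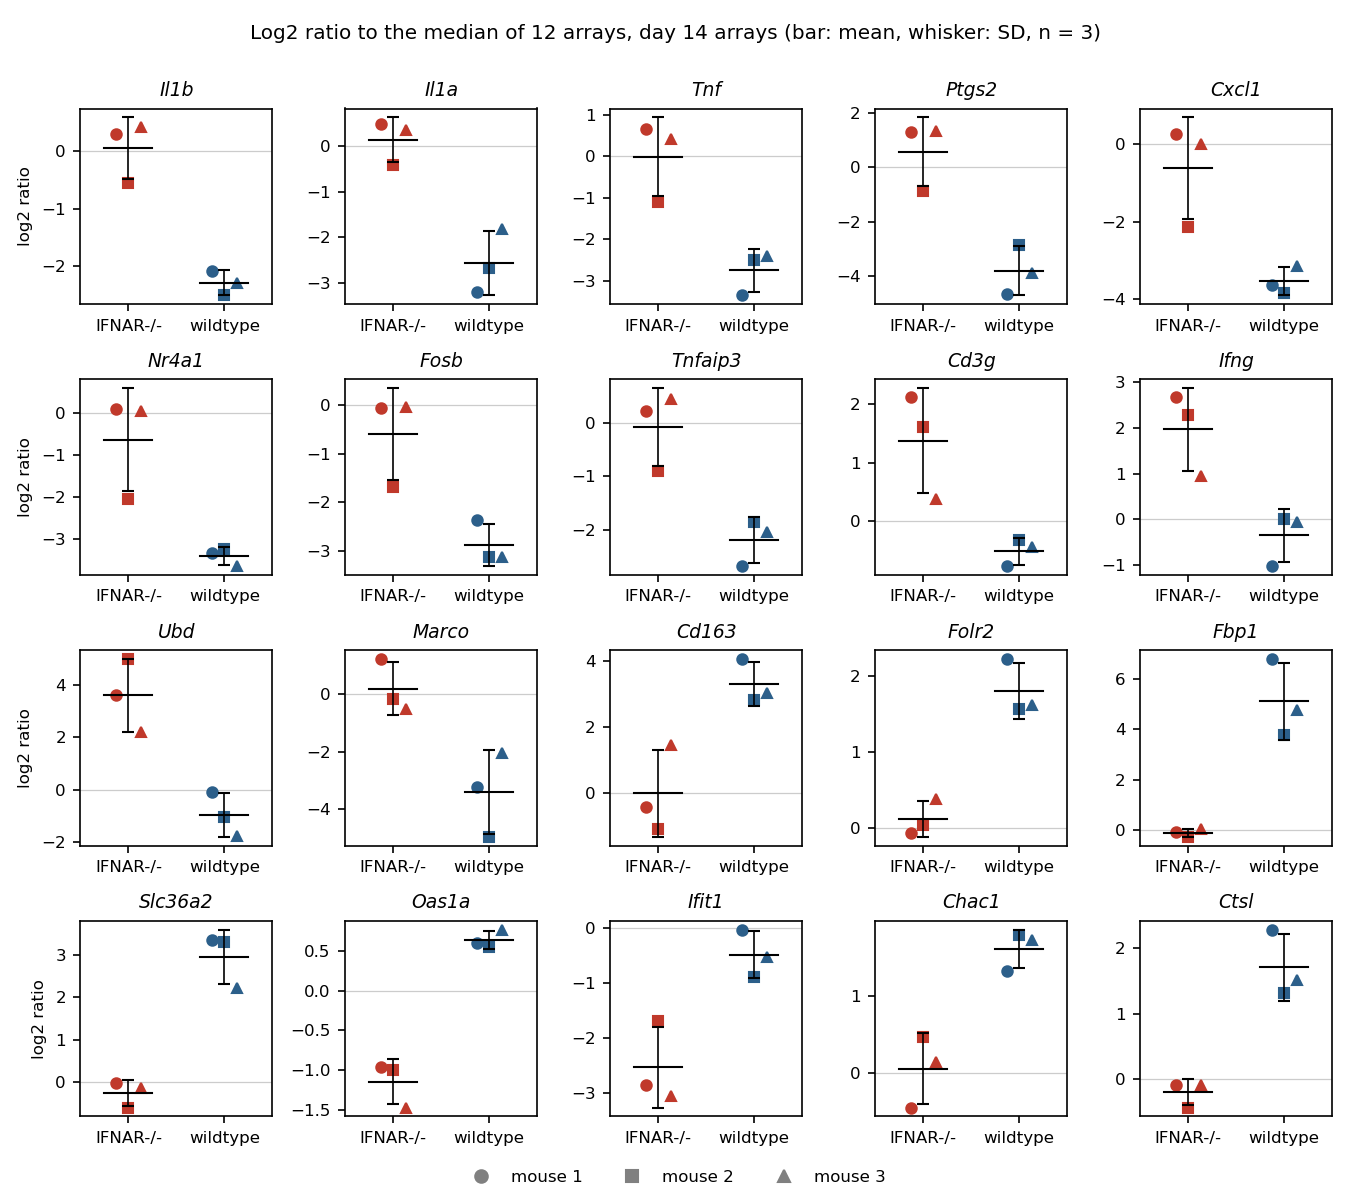
Log2 ratios of 20 genes in each day 14 array, IFNAR-/- mice on the left and wildtype mice on the right of each panel, with 1 symbol per mouse, a bar for the mean and a whisker for the SD (n = 3). In Nr4a1, Cxcl1 and Fosb IFNAR-/- mouse 2 (square) lies below the other IFNAR-/- mice and above all wildtype mice, while in Cd3g and Ifng IFNAR-/- mouse 3 (triangle) is the lowest of its group.

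Of 22 fungal recognition receptors and adaptors 4 rose (18.2%) and 1 fell. Clec4e (Mincle) and Clec4n (Dectin-2), are C-type lectins for fungal and mycobacterial glycans. Clec4e had 0.16, 0.12 and 0.13 in IFNAR-/- mice, against -3.19, -1.96 and -1.39 in wildtype mice. Clec4n had 0.08, -0.52 and 0.01 in IFNAR-/- mice, against -1.36, -2.12 and -1.16 in wildtype mice. Neither gene overlapped between genotypes, and they rose by 2.32 ± 0.41 and 1.40 ± 0.23 (adjusted p 0.0128 and 0.0102). Syk, the kinase that relays these receptors, rose by 1.00 ± 0.18, but its 4 probe sets disagreed, from -0.67 to 3.39. Tlr2, a receptor for microbial lipoproteins, rose by 1.46 ± 0.25 and Cd14, its co-receptor, by 1.19 ± 0.24, a call that ended without IFNAR-/- mouse 1 or IFNAR-/- mouse 3 (highest adjusted p 0.0683). Clec7a (Dectin-1), the receptor for beta-glucan and chosen after its value was seen, was at 0.12 ± 0.09 (adjusted p 0.48). The member that fell was Cd209d, the list median was 0.33, and without 1 array 4 to 5 rose. Among Toll-like receptor genes Irak3, an inhibitory kinase, rose by 1.44 ± 0.23 and the adaptor Ticam1 fell by 0.98 (SE 0.16).

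A gene of the oxidative burst and a chemotactic receptor were among the rises with the lowest p. Cybb, the catalytic subunit of the phagocyte NADPH oxidase, had 0.07, -0.73 and -0.22 in IFNAR-/- mice, against -2.33, -2.27 and -2.85 in wildtype mice, and Fpr2, a receptor for formylated peptides, had -0.01, -0.07 and -0.30 in IFNAR-/- mice, against -1.72, -2.23 and -1.59 in wildtype mice. All IFNAR-/- arrays lay above all wildtype arrays by more than 1, and the rises were 2.20 ± 0.22 and 1.72 ± 0.17 (adjusted p 0.000995 and 0.000995). The oxidase subunit Ncf1 differed by 1.48 ± 0.25 (adjusted p 0.0104), while Cyba at -0.17 ± 0.11 and Ncf4 at 0.13 ± 0.15 did not pass (adjusted p 0.407 and 0.689); these 3 were chosen after their values were seen. Among 20 scavenger receptors Marco and Axl, a receptor for dying cells, rose and Cd163 fell. The 2 probe sets of Axl were at 1.52 and 0.02, and only the first passed by itself. Of 6 CD300 receptors, which sense lipids on cell surfaces, Cd300ld fell by 1.56 (SE 0.20) and Cd300lf by 0.46 (SE 0.12), Cd300lf not without any 1 of the 6 arrays (highest adjusted p 0.142). Complement factor B (Cfb) and C1ra rose by 1.36 ± 0.28 and 1.13 ± 0.28, 2 of 24 members (8.33%, beside 1.75% of all genes). Cfb did not pass without IFNAR-/- mouse 1, IFNAR-/- mouse 2 or wildtype mouse 3 (highest adjusted p 0.0822). C1ra did not pass without 1 array other than IFNAR-/- mouse 3 (highest adjusted p 0.109). Of 13 Fc receptors 0 passed in limma (1 higher and 1 lower at an unadjusted p under 0.05).

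Of 22 T cell markers 7 rose, in a count that rested on single arrays. Cd3g, part of the CD3 signalling complex, had 2.13, 1.62 and 0.38 in IFNAR-/- mice, against -0.76, -0.32 and -0.44 in wildtype mice, and Cd8b1, the beta subunit of CD8, had 2.30, 2.13 and 0.78 in IFNAR-/- mice, against -0.55, -0.29 and 0.21 in wildtype mice. IFNAR-/- mouse 3 was the lowest of its group in both, and the groups did not overlap. They rose by 1.89 ± 0.40 and 1.94 ± 0.44 (adjusted p 0.0258 and 0.0293), as did Lat and Cd27, T cell signalling and costimulatory proteins, by 0.90 ± 0.20 and 0.88 ± 0.20. Thy1, Cd3d and Cd6, chosen after their values were seen, differed by 1.91 ± 0.46, 1.63 ± 0.39 and 0.70 ± 0.17. The rises were 31.8% of the markers, with 0 falls in limma (0 lower at an unadjusted p under 0.05) and a median of 0.62. The count was 8 without IFNAR-/- mouse 3, 2 without wildtype mouse 3 and 0 without any other of the 6 arrays, while the median stayed between 0.43 and 0.80. The list's median in each array was 0.69, 0.56 and 0.13 in IFNAR-/- mice, against -0.31, -0.24 and 0.00 in wildtype mice. Adding the 5' over 3' signal to the fit left 0 rises of the 22, at a median of 0.695, and adding the poly-A signal left 6. Cd4, chosen after its value was seen, was at 0.31 ± 0.18 (adjusted p 0.347). The sort was stated to leave under 5% lymphocytes, and whether more lymphocytes or more transcripts per lymphocyte gave these values was not tested.

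Of 20 cytotoxic and natural killer cell genes 5 rose (25%). Fasl, the death ligand of cytotoxic cells, had 1.52, 1.64 and 0.72 in IFNAR-/- mice, against -0.56, -0.26 and -0.45 in wildtype mice, and Ctsw, a protease of these cells, had 1.05, 2.17 and 0.80 in IFNAR-/- mice, against -0.83, -0.11 and -0.45 in wildtype mice. They rose by 1.72 ± 0.22 and 1.81 ± 0.33 (adjusted p 0.00365 and 0.0138) and passed whichever array was left out, as did Klrg1, a receptor of effector cells, at 1.58 ± 0.26. Il2rb, a chain of the interleukin-2 receptor, rose by 0.79 ± 0.17 and did not pass without 1 array other than IFNAR-/- mouse 3 or wildtype mouse 2 (highest adjusted p 0.0885). Nkg7, a granule protein chosen after its value was seen, differed by 2.44 ± 0.53 (adjusted p 0.0261), and the granzyme Gzmb, chosen likewise, by 1.71 ± 0.58 (0.114). The list median was 0.91, and 3 to 8 rose without 1 array. It was 0.70 with 0 rises where the 5' over 3' signal entered the fit, and 5 rose where the poly-A signal did. By array the medians were 0.65, 0.81 and 0.02 in IFNAR-/- mice, against -0.42, -0.06 and -0.26 in wildtype mice.

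Ifng, the gene of interferon gamma, had 2.67, 2.28 and 0.95 in IFNAR-/- mice, against -1.02, 0.02 and -0.05 in wildtype mice. Its rise of 2.32 ± 0.54 (adjusted p 0.033) did not pass without 1 array other than IFNAR-/- mouse 3 (highest adjusted p 0.093). Of 18 genes that respond to interferon gamma 3 rose (16.7%), with 17 of the 18 above 0 and a median of 0.67. They were Ubd, a ubiquitin-like modifier, Cxcl9, a ligand of CXCR3, and Ciita, the master activator of MHC class II. Ubd had 3.64, 4.99 and 2.21 in IFNAR-/- mice, against -0.10, -1.03 and -1.77 in wildtype mice, a difference of 4.58 ± 0.92 (adjusted p 0.0212), and did not pass without 1 array other than IFNAR-/- mouse 3 or wildtype mouse 1 (highest adjusted p 0.0748). Cxcl9 rose by 2.18 ± 0.52 and did not pass without 1 array other than IFNAR-/- mouse 3 (highest adjusted p 0.134). Cxcl10, another ligand of CXCR3, had 0.00, -0.26 and -0.81 in IFNAR-/- mice, against -2.13, -1.77 and -2.38 in wildtype mice, without overlap, and its difference of 1.74 ± 0.45 fell just short (adjusted p 0.0507). Nos2, the nitric oxide synthase of classically activated macrophages, was at 1.79 ± 0.73 (adjusted p 0.191). Ifngr1, a chain of the interferon gamma receptor, fell by 0.78 (SE 0.19) and did not pass without 1 array other than wildtype mouse 1 (highest adjusted p 0.105). Of 18 interferon gamma response genes 0 to 2 rose without 1 array, and the list median then ran from 0.43 to 0.85. It was 0.21 with 0 rises where the 5' over 3' signal entered the fit, and 1.02 with 5 rises where the poly-A signal did. Array medians came to 0.28, 0.72 and -0.06 in IFNAR-/- mice, against -0.13, -0.15 and -0.69 in wildtype mice, and IFNAR-/- mouse 3, which also had the lowest T cell marker median of its group, had the lowest of the IFNAR-/- arrays.

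Of 17 MHC class II presentation genes 4 rose (23.5%) and 2 fell (11.8%). Cd74, the invariant chain of MHC class II, had 0.28, 0.17 and 0.32 in IFNAR-/- mice, against -0.18, -0.16 and -0.22 in wildtype mice, and H2-Ab1, a class II chain, had 0.45, 0.29 and 0.39 in IFNAR-/- mice, against -0.06, -0.01 and -0.28 in wildtype mice. The genotypes did not overlap in either. Cd74 rose by 0.44 ± 0.09 (adjusted p 0.0212) and did not pass without 1 array other than IFNAR-/- mouse 2 or wildtype mouse 1 (highest adjusted p 0.0656), while H2-Ab1 at 0.50 ± 0.15 did not pass (0.0899). H2-DMb2 and H2-Oa, which control peptide loading, rose by 1.42 ± 0.26 and 1.83 ± 0.36, and Ciita by 0.94 ± 0.22. H2-DMb2 passed whichever array was left out, H2-Oa not without IFNAR-/- mouse 1 or wildtype mouse 2 (highest adjusted p 0.0644) and Ciita not without 1 array other than IFNAR-/- mouse 2 (highest adjusted p 0.114). Lgmn, a protease of antigen processing, and Rfxap, a class II promoter factor, fell by 1.33 and 0.63 (SE 0.25 and 0.14), and did not pass without wildtype mouse 2 (highest adjusted p 0.0569) and without 1 array other than IFNAR-/- mouse 1 or wildtype mouse 1 (highest adjusted p 0.0851). The list median was 0.44, and 12 of the 17 members were higher without overlap, beside 10.2% of all genes. That median was 0.31 with 0 rises where the 5' over 3' signal entered the fit, and 0.44 with 5 rises where the poly-A signal did. Of 16 MHC class I genes 0 passed in limma (6 higher and 0 lower at an unadjusted p under 0.05), with a median of 0.27. Of these 16 genes 9 were higher without overlap, beside 10.2% of all genes.

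Of 23 conventional dendritic cell markers 5 rose (21.7%) and 0 fell in limma (2 lower at an unadjusted p under 0.05), with a median of 0.31. These were Rogdi at 0.60 ± 0.11, H2-DMb2, Ciita, Xcr1 and, chosen after its value was seen, Sirpa at 1.13 ± 0.27. The lineage markers Zbtb46 and Flt3, chosen after their values were seen, were at 0.24 ± 0.16 and 0.18 ± 0.15 (adjusted p 0.446 and 0.562). Of 21 costimulation and maturation genes Fscn1, an actin-bundling protein of mature dendritic cells, Marcksl1, Cd83 and Ccr7 rose, by 1.02 ± 0.19, 1.04 ± 0.23, 1.30 ± 0.32 and 0.78 ± 0.20. Without wildtype mouse 2 0 of these 21 passed, and without another array at most 2 did. The differences of all 14 plasmacytoid dendritic cell markers were negative (median -0.61), beside 49.5% of all genes, and Siglech, Cd209d and Klk1 fell (21.4%). Siglech, a surface marker of these cells, had 0.15, -0.24 and -0.35 in IFNAR-/- mice, against 0.44, 0.46 and 0.52 in wildtype mice and fell by 0.62 (SE 0.13), though not without 1 array other than IFNAR-/- mouse 1 (highest adjusted p 0.0826). Klk1, a kallikrein, fell by 1.62 (SE 0.33) with 4 probe sets from -3.17 to 0.23. None of the 3 falls passed with every array left out in turn. With the 5' over 3' signal in the fit 0 of the 14 fell, at a median of -0.49, and with the poly-A signal 0 fell, at a median of -0.50. At day 7 the list median was -0.63. Irf7 and Bst2 are in this list and are also interferon-stimulated.

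Of 29 alveolar macrophage markers 7 rose (24.1%) and 1 fell. Marco, a scavenger receptor of alveolar macrophages, had 1.22, -0.17 and -0.51 in IFNAR-/- mice, against -3.23, -4.96 and -2.04 in wildtype mice. The rise of 3.59 ± 0.70 (adjusted p 0.0186) did not pass without IFNAR-/- mouse 1 (highest adjusted p 0.0534). Slc39a2, a zinc importer, had -0.21, 0.48 and -0.94 in IFNAR-/- mice, against -2.49, -3.82 and -3.16 in wildtype mice and rose by 2.93 ± 0.35 (adjusted p 0.00221) whichever array was left out. Fabp1, a fatty acid carrier, had 1.70, -1.19 and -1.23 in IFNAR-/- mice, against -2.71, -4.57 and -2.71 in wildtype mice; IFNAR-/- mouse 1 was far above the other arrays, and the rise of 3.09 ± 0.75 did not pass without 1 array other than IFNAR-/- mouse 2 or IFNAR-/- mouse 3 (highest adjusted p 0.131). Krt79 and Krt19, keratins, rose by 1.96 ± 0.41 and 2.33 ± 0.55, and Lpl, which releases fatty acids from lipoproteins, by 1.20 ± 0.27, not without IFNAR-/- mouse 1 or wildtype mouse 3 (highest adjusted p 0.0685) for Krt79, 1 array other than IFNAR-/- mouse 2 or IFNAR-/- mouse 3 (highest adjusted p 0.115) for Krt19 and IFNAR-/- mouse 1, IFNAR-/- mouse 3 or wildtype mouse 2 (highest adjusted p 0.0866) for Lpl. Il1rn was also among the 7, and the clotting factor F7 fell by 1.04 (SE 0.24), not without 1 array other than wildtype mouse 3 (highest adjusted p 0.111). Medians by array were 0.00, -0.57 and -0.54 in IFNAR-/- mice, against -0.47, -0.90 and -0.46 in wildtype mice and overlapped, and the count was 1 without IFNAR-/- mouse 1. The lineage factor Pparg and the marker Siglecf, chosen after their values were seen, were at 0.17 ± 0.33 and 0.76 ± 0.47 (adjusted p 0.833 and 0.389).

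Cd163, the haemoglobin scavenger receptor of tissue macrophages, had -0.43, -1.10 and 1.45 in IFNAR-/- mice, against 4.07, 2.82 and 3.02 in wildtype mice, with IFNAR-/- mouse 3 nearest to the wildtype arrays. It fell by 3.33 (SE 0.54, adjusted p 0.00958). Folr2, a folate receptor of the same kind of macrophage, had -0.07, 0.04 and 0.38 in IFNAR-/- mice, against 2.22, 1.56 and 1.62 in wildtype mice, a wide gap, and fell by 1.68 (SE 0.18, adjusted p 0.00116). Both falls passed whichever array was left out. Of 24 interstitial and monocyte-derived macrophage markers these 2 fell (8.33%) and Cx3cr1, Nr4a1 and Cd14 rose (12.5%), with a median of 0.02. Vsig4, Lyve1 and Ccr2, chosen after their values were seen, were at 0.05 ± 0.11, 0.05 ± 0.73 and 0.09 ± 0.30 and did not pass. Of 23 alternative activation markers, genes that interleukin-4 and interleukin-13 raise in macrophages, the C-type lectin Cd209e fell by 2.48 (SE 0.60), not without 1 array other than IFNAR-/- mouse 3 or wildtype mouse 3 (highest adjusted p 0.134). The list median was -0.32, with 8 of 23 lower without overlap, beside 13.3% of all genes. Arg1, an arginine-degrading enzyme of such macrophages, had 0.32, 0.11 and 0.63 in IFNAR-/- mice, against 0.41, 0.86 and 0.75 in wildtype mice, a difference of -0.32 ± 0.34 (adjusted p 0.65). Retnla and Mrc1, chosen after their values were seen, were at -1.32 ± 0.47 and -0.90 ± 0.32 (adjusted p 0.133 and 0.135).

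In haem and iron handling, Lcn2, which binds bacterial siderophores and is also a neutrophil granule protein, had 0.41, 1.66 and 0.06 in IFNAR-/- mice, against -2.85, -3.21 and -2.61 in wildtype mice and rose by 3.60 ± 0.78, though not without 1 array other than IFNAR-/- mouse 3 (highest adjusted p 0.0842). The ferritin heavy chain Fth1 rose by 0.52 ± 0.10, not without IFNAR-/- mouse 1 or wildtype mouse 2 (highest adjusted p 0.0589). Ireb2, which represses ferritin translation when iron is low, and Hfe, a regulator of iron uptake, fell by 0.95 and 1.41 (SE 0.16 and 0.26). With Cd163 that is 3 of 27 lower (11.1%) and 2 higher (7.41%), beside 3.29% and 1.75% of all genes. Of 35 lysosomal genes 2 fell (5.71%), beside 3.29% of all genes, and 0 rose in limma (1 higher at an unadjusted p under 0.05). Ctsl, a cathepsin protease, had -0.08, -0.43 and -0.08 in IFNAR-/- mice, against 2.28, 1.32 and 1.52 in wildtype mice and fell by 1.90 (SE 0.21, adjusted p 0.0018), and Glb1, beta-galactosidase, fell by 0.92 (SE 0.14). Both passed whichever array was left out. The 2 probe sets of Ctsl were at -3.40 and -0.41, and only the first passed by itself. The list median was -0.10.

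Of 32 genes of glycolysis and gluconeogenesis 4 rose (12.5%) and 3 fell (9.38%). Fbp1, the fructose bisphosphatase of gluconeogenesis, had -0.08, -0.25 and 0.06 in IFNAR-/- mice, against 6.78, 3.78 and 4.76 in wildtype mice. All wildtype arrays were far above all IFNAR-/- arrays, which lay near the 12-array median. The wildtype values spread over 3 units, and the difference of -5.20 ± 1.25 (adjusted p 0.0388) did not pass without any 1 of the 6 arrays (highest adjusted p 0.105). Pck2, the mitochondrial enzyme that also feeds gluconeogenesis, fell by 0.93 (SE 0.17), and the enolase Eno2 by 1.14 (SE 0.23). Pfkp, a phosphofructokinase that commits glucose to breakdown, had 0.64, 0.64 and 0.71 in IFNAR-/- mice, against -0.62, -0.22 and -0.79 in wildtype mice and rose by 1.21 ± 0.24 (adjusted p 0.0207). Its 3 probe sets were at 2.23, 1.14 and 0.26, and only the first passed by itself. Slc2a6, a sugar transporter, hexokinase Hk1 and pyruvate carboxylase Pcx rose by 1.12 ± 0.28, 0.75 ± 0.19 and 0.85 ± 0.21, but all 3 calls ended with any 1 of the 6 arrays left out, at adjusted p up to 0.147. Pfkp did not pass without IFNAR-/- mouse 3, wildtype mouse 1 or wildtype mouse 3 (highest adjusted p 0.0739), Pck2 not without wildtype mouse 2 (highest adjusted p 0.0533) and Eno2 not without IFNAR-/- mouse 2, wildtype mouse 1 or wildtype mouse 3 (highest adjusted p 0.0632). The list median was 0.23, and without 1 array 0 to 2 rose.

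In lipid metabolism, Angptl4, an inhibitor of lipoprotein lipase and a target of PPAR factors, had -0.84, -0.83 and -1.45 in IFNAR-/- mice, against -0.01, 0.06 and 0.11 in wildtype mice. It fell by 1.10 (SE 0.19, adjusted p 0.0114) and passed whichever array was left out. Its 2 probe sets were at -1.98 and -0.21, and only the first passed by itself. Plin2, which coats lipid droplets, fell by 0.80, Slc25a20, the mitochondrial acylcarnitine carrier, by 0.49 and Hadh, an enzyme of fatty acid oxidation, by 0.49 (SE 0.19, 0.12 and 0.10), and the calls of these 3 could be ended by 1 array (highest adjusted p 0.123, 0.128 and 0.0671). Of 34 members 4 fell (11.8%), and Lpl and Fabp1 rose (5.88%), with a median of -0.11; 1 to 4 fell with 1 array left out. Apoc2, which activates lipoprotein lipase, fell by 2.32 (SE 0.42), 1 of 16 cholesterol efflux genes, and Ggps1, an enzyme of isoprenoid synthesis, by 0.72 (SE 0.15), 1 of 23 cholesterol synthesis and uptake genes. Apoc2 did not pass without wildtype mouse 2 (highest adjusted p 0.0518) and Ggps1 not without 1 array other than IFNAR-/- mouse 1 or wildtype mouse 1 (highest adjusted p 0.0718).

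Differences of respiratory chain and ribosomal protein genes lay mostly a little below 0. Of 65 respiratory chain genes Sdhd and Ndufb8, subunits of different complexes, fell by 0.68 and 0.40 (SE 0.14 and 0.10), which is 3.08% beside 3.29% of all genes. Their calls ended without IFNAR-/- mouse 3, wildtype mouse 1 or wildtype mouse 3 (highest adjusted p 0.0667) for Sdhd and without 1 array other than IFNAR-/- mouse 1 (highest adjusted p 0.114) for Ndufb8. The median was -0.20, 56 members had a difference below 0, and 23 were lower without overlap, beside 13.3% of all genes. The list's median in each array was 0.06, -0.07 and 0.03 in IFNAR-/- mice, against 0.33, 0.17 and 0.21 in wildtype mice. Of 42 ribosomal protein genes Rps9, Rps25 and Rpl13a fell (7.14%), with 37 below 0 and a median of -0.15. Rps9 had -0.04, -0.52 and -0.18 in IFNAR-/- mice, against 1.87, 1.89 and 2.02 in wildtype mice, without overlap, and fell by 2.17 (SE 0.34, adjusted p 0.00844), passing whichever array was left out, while Rps25 and Rpl13a did not (highest adjusted p 0.0971 and 0.13). The 3 probe sets of Rps9 were at -5.63, -0.37 and -0.51, and only the first passed by itself. Ribosomal protein genes have many near-identical copies, which the probe sets may not tell apart.

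Of 38 genes of the integrated stress and unfolded protein responses, which cells use when amino acids run short or proteins misfold, 5 fell and 1 rose. Promoters of Chac1, Trib3 and Asns are shown because these targets of the factor ATF4 were lower and each holds a C/EBP-ATF response element, the motif of ATF4 and its partners. The windows of 120 bases are from RefSeq on GRCm38.p6, on the gene's strand (chr2:119350993-119351112, plus strand, chr2:152344011-152344130, minus strand, and chr6:7693169-7693288, minus strand), with the match in capitals.
Chac1: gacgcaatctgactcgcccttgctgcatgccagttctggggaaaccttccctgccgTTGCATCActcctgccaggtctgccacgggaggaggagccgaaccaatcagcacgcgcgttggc
Trib3: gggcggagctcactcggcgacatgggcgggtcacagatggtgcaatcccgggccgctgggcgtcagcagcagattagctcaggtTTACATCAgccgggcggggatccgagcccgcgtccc
Asns: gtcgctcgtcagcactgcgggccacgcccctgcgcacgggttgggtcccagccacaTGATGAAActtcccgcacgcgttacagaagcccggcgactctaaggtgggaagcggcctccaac
The letters searched were TGATGNAA on both strands. The match lies on the opposite strand in Chac1 and Trib3, and 3.97% of all promoters and 3.24% of the 14452 measured genes held one, as did 8 of 253 higher genes (3.16%) and 19 of 498 lower genes (3.82%).

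Chac1, which degrades glutathione, had -0.45, 0.46 and 0.14 in IFNAR-/- mice, against 1.32, 1.78 and 1.71 in wildtype mice. The groups did not overlap, and the difference of -1.55 ± 0.23 (adjusted p 0.00761) passed whichever array was left out. Trib3, an inhibitor of ATF4 itself, had -0.21, -0.42 and -0.15 in IFNAR-/- mice, against 0.48, 0.95 and 1.70 in wildtype mice and fell by 1.30 (SE 0.26), not without wildtype mouse 2 (highest adjusted p 0.0531). Asns, asparagine synthetase, was at -1.08 ± 0.28 (adjusted p 0.0493, chosen after its value was seen). Atf4 fell by 0.58 (SE 0.10), but its 3 probe sets ranged from -1.27 to 0.00 and none passed by itself. Ddit3, the pro-apoptotic factor CHOP, fell by 0.58 (SE 0.14), not without 1 array other than IFNAR-/- mouse 3 (highest adjusted p 0.121). Its 2 probe sets were at -1.04 and -0.12, and only the first passed by itself. Hyou1, a chaperone of the endoplasmic reticulum, rose by 1.04 ± 0.21, not without 1 array other than IFNAR-/- mouse 2 or wildtype mouse 2 (highest adjusted p 0.0715). The shares were 13.2% lower and 2.63% higher, with a median of -0.08, and without 1 array 2 to 5 fell. Of 27 heat shock genes 0 passed in limma (6 higher and 1 lower at an unadjusted p under 0.05). Hspa1a, chosen after its value was seen, had 1.49, -3.45 and 0.08 in IFNAR-/- mice, against -3.40, -4.01 and -3.90 in wildtype mice, with IFNAR-/- mouse 2 near the wildtype arrays. Without IFNAR-/- mouse 2 5 heat shock genes rose.

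Among antioxidant genes Prdx2, a peroxiredoxin, had -0.69, -0.33 and -0.69 in IFNAR-/- mice, against 1.45, 0.85 and 0.88 in wildtype mice and fell by 1.63 (SE 0.16, adjusted p 0.000995), and Gsto1, a glutathione transferase, fell by 0.97 (SE 0.16); both passed whichever array was left out. The mitochondrial Prdx3 fell by 0.55 (SE 0.13) and thioredoxin reductase Txnrd1 rose by 1.04 ± 0.23, but they did not pass without 1 array other than IFNAR-/- mouse 2 or wildtype mouse 1 (highest adjusted p 0.105) and without 1 array other than IFNAR-/- mouse 2 or wildtype mouse 1 (highest adjusted p 0.096). That is 3 of 34 lower (8.82%) and 1 higher (2.94%), beside 3.29% and 1.75% of all genes. The 2 probe sets of Prdx2 were at -2.78 and -0.48, and only the first passed by itself. Of 23 metallothionein and zinc transporter genes Slc39a2 and the metal-binding Mt1 rose (8.70%), beside 1.75% of all genes. Mt1 rose by 0.88 ± 0.19, not without IFNAR-/- mouse 1, wildtype mouse 2 or wildtype mouse 3 (highest adjusted p 0.0793).

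In matrix turnover and repair, Mmp2, a gelatinase, had 1.09, 1.26 and -0.11 in IFNAR-/- mice, against -2.38, -2.92 and -2.92 in wildtype mice and rose by 3.49 ± 0.53 (adjusted p 0.00807) whichever array was left out, 1 of 24 matrix metalloproteinases and inhibitors. The growth factors Pdgfa, Pdgfc and Igf1 fell by 1.73, 1.74 and 1.96 (SE 0.32, 0.36 and 0.43), 3 of 29 repair growth factors (10.3%). Igf1, insulin-like growth factor, had -0.07, -1.50 and 0.24 in IFNAR-/- mice, against 1.92, 1.39 and 1.21 in wildtype mice. Pdgfa did not pass without wildtype mouse 3 (highest adjusted p 0.0554), Pdgfc not without 1 array other than IFNAR-/- mouse 1 or wildtype mouse 3 (highest adjusted p 0.0783) and Igf1 not without wildtype mouse 1, wildtype mouse 2 or wildtype mouse 3 (highest adjusted p 0.0809). Inhba, a subunit of activin, rose by 0.81 ± 0.20, with probe sets at 1.85 and -0.23, and did not pass without any 1 of the 6 arrays (highest adjusted p 0.114).

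Of 51 cell cycle and DNA replication genes 46 had a difference above 0, the median was 0.35, and Pole, a DNA polymerase, Ccnd2, a cyclin, Rrm2, a ribonucleotide reductase subunit, and Mcm5, a replication helicase subunit, rose (7.84%), by 0.84 ± 0.13, 1.51 ± 0.31, 1.32 ± 0.30 and 0.73 ± 0.18. Pole had 0.34, 0.27 and 0.43 in IFNAR-/- mice, against -0.75, -0.48 and -0.24 in wildtype mice and passed whichever array was left out. The count of rises was 1 without IFNAR-/- mouse 1, IFNAR-/- mouse 3 or wildtype mouse 2, 2 without wildtype mouse 1, 8 without wildtype mouse 3 and 9 without IFNAR-/- mouse 2, and Ccnd2, Rrm2 and Mcm5 could be ended by 1 array (highest adjusted p 0.0722, 0.108 and 0.136). By array the medians were 0.26, -0.14 and 0.14 in IFNAR-/- mice, against -0.42, -0.48 and 0.01 in wildtype mice, so wildtype mouse 3 lay among the IFNAR-/- arrays. Of 22 retinoid genes the receptor Rara rose by 1.12 ± 0.22 and the retinol carrier Rbp4 fell by 3.07 (SE 0.77). That is 4.55% higher and 4.55% lower, beside 1.75% and 3.29% of all genes. Rara did not pass without 1 array other than IFNAR-/- mouse 2 or wildtype mouse 2 (highest adjusted p 0.0665). Rbp4 did not pass without 1 array other than IFNAR-/- mouse 3 (highest adjusted p 0.125). Of 20 circadian genes 0 passed in limma (2 higher and 3 lower at an unadjusted p under 0.05), and of 26 apoptosis regulators Fasl rose.

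Markers of other cells that a lung digest can carry were checked in the same way. Of 19 neutrophil markers Fpr2, Stfa3 and Lcn2 rose (15.8%), Stfa3, a stefin, by 0.99 ± 0.18, with a list median of 0.43. Array medians came to 0.17, 0.02 and 0.07 in IFNAR-/- mice, against -0.21, -0.40 and -0.32 in wildtype mice. The granule genes S100a8 and S100a9, chosen after their values were seen, were at 0.97 ± 0.39 and 1.05 ± 0.84 (adjusted p 0.182 and 0.528). Of 19 B and plasma cell markers Jchain, which joins secreted antibodies, rose by 1.86 ± 0.47, not without 1 array other than IFNAR-/- mouse 3 (highest adjusted p 0.14), and 17 had a difference above 0. Among 23 lung epithelial markers Krt19 was higher and the cadherin Cdh1 lower by 1.33 (SE 0.34), at a list median of 0.31. Differences were above 0 for 19 of the 23, beside 50.5% of all genes. Without overlap 10 were higher and 1 lower, beside 10.2% and 13.3% of all genes. Epithelial medians by array were -0.11, 0.07 and 0.01 in IFNAR-/- mice, against -0.43, -0.32 and -0.41 in wildtype mice. Cdh1 did not pass without 1 array other than IFNAR-/- mouse 3 (highest adjusted p 0.159). Fibroblast and smooth muscle markers had 0 of 23 past the threshold in limma (1 higher and 0 lower at an unadjusted p under 0.05), with a median of 0.29. Of these 23 markers 21 were above 0 and 10 were higher without overlap, beside 50.5% and 10.2% of all genes. Endothelial and erythroid markers had 0 of 20 and 0 of 10 past it in limma, with 0 higher and 1 lower and with 0 higher and 0 lower at an unadjusted p under 0.05. Among 18 eosinophil, basophil and mast cell markers the factor Gata1 fell by 0.74 (SE 0.18), not without 1 array other than IFNAR-/- mouse 2 or wildtype mouse 2 (highest adjusted p 0.142). With the 5' over 3' signal in the fit the epithelial median was -0.12, and with the poly-A signal it was 1.28. The part of these cells in the differences above was not tested.

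**Figure D4:**
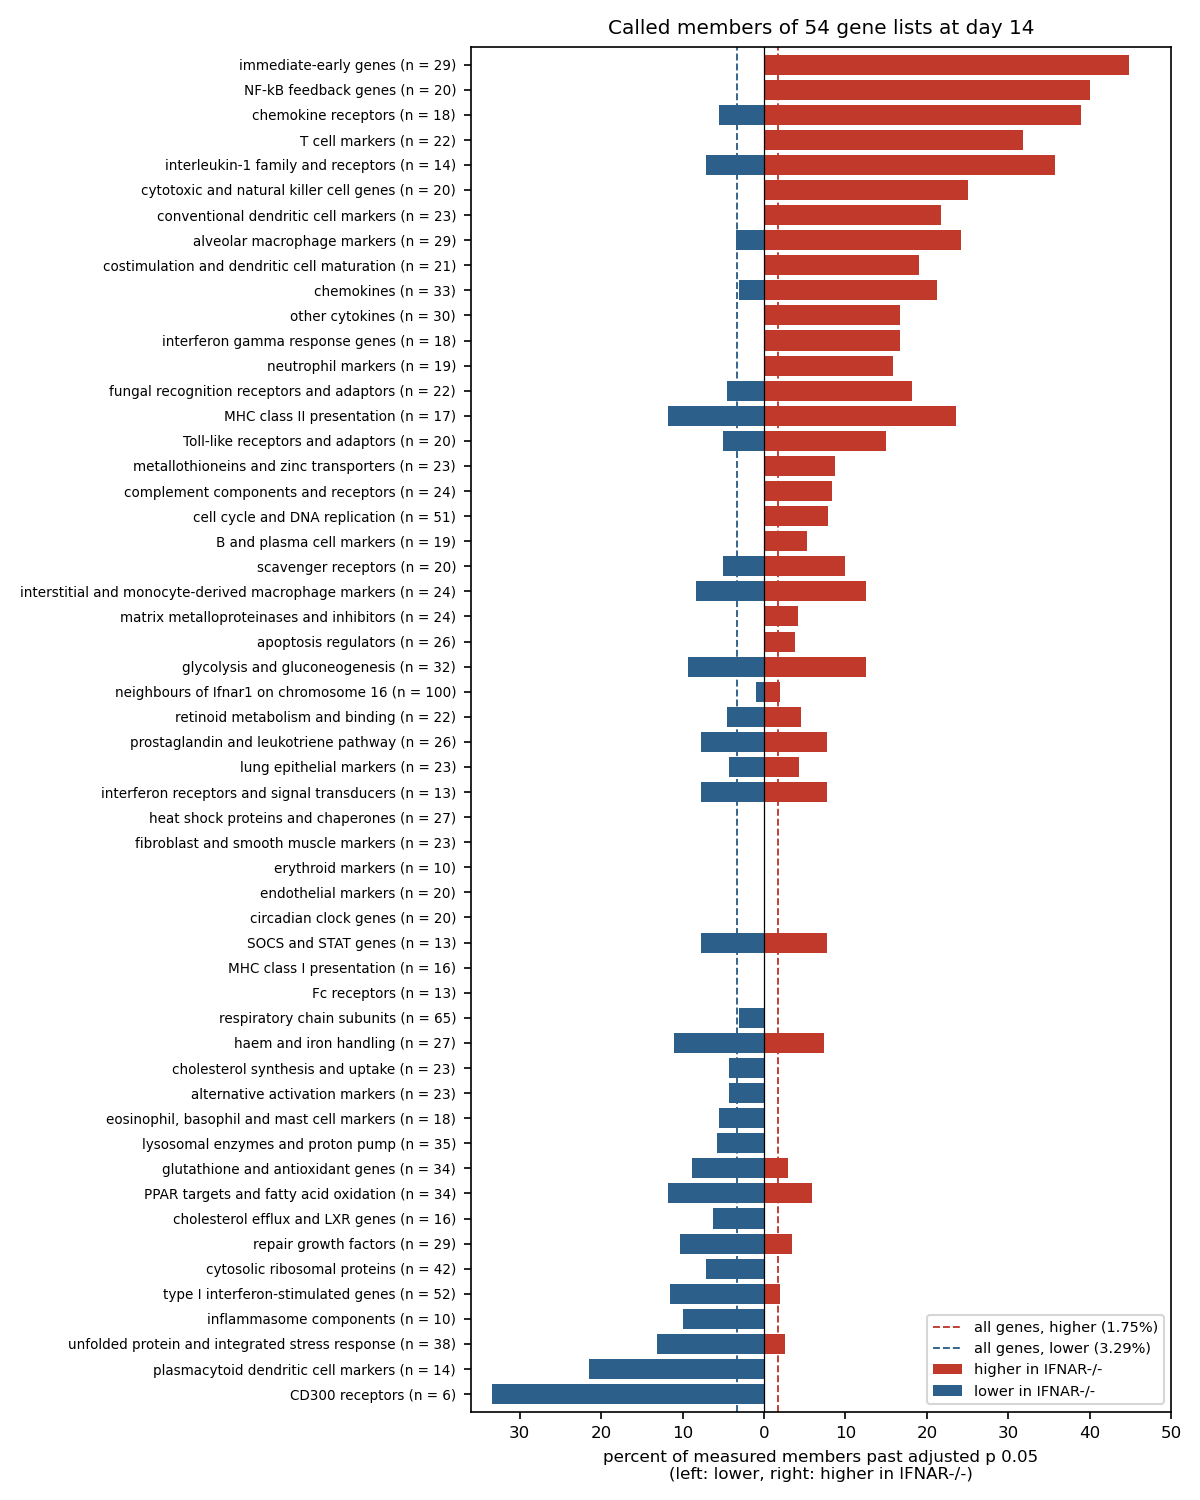
For each of 54 gene lists the bars give the percent of measured members past an adjusted p of 0.05 at day 14, to the right for genes higher and to the left for genes lower in IFNAR-/- cells, with the same shares over all genes (1.75% and 3.29%) as dashed lines and the number of measured members in brackets. Immediate-early genes lie at 44.8% higher, and CD300 receptors, 2 of only 6 genes, at 33.3% lower.

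Some of the largest and most precise differences lay outside these lists. Car9, a carbonic anhydrase that hypoxia induces, had -0.87, -1.17 and -1.13 in IFNAR-/- mice, against 0.80, 0.78 and 0.99 in wildtype mice. It had the lowest p of all falls, at -1.91 ± 0.15 (adjusted p 0.000799), and the same size at day 7, -1.87 ± 0.15 (0.000139). Slc36a2, a proton-coupled amino acid transporter, had -0.04, -0.60 and -0.14 in IFNAR-/- mice, against 3.34, 3.29 and 2.21 in wildtype mice and fell by 3.21 (SE 0.32). Ddx4, an RNA helicase of germ cells, had -0.41, -0.47 and 0.26 in IFNAR-/- mice, against 2.81, 2.87 and 4.19 in wildtype mice and fell by 3.50 (SE 0.39). None of these 3 genes overlapped between genotypes. The transmembrane gene Tmem26, the homeobox gene Msx3, the zinc finger gene Zfp874a and the piRNA pathway gene Gtsf1 fell by 3.16, 2.34, 2.53 and 1.95 (SE 0.46, 0.22, 0.38 and 0.19). The kinase gene Cdk20 and the uncharacterised G530011O06Rik fell by 1.19 and 2.12 (SE 0.12 and 0.18). Scn3a, a sodium channel gene, fell by 1.20 (SE 0.10) as an average of probe sets at -2.57 and 0.17.

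Bex1, a small signalling adaptor best known from neurons, had -1.98, -2.23 and -1.97 in IFNAR-/- mice, against 4.22, 3.37 and 0.68 in wildtype mice. It fell by 4.82 (SE 1.07, adjusted p 0.0285), but the wildtype values spread over 3 units and it did not pass without 1 array other than wildtype mouse 3 (highest adjusted p 0.0933). Cbln1, a secreted cerebellin, had 2.00, 1.95 and 2.10 in IFNAR-/- mice, against 0.16, -1.46 and -1.58 in wildtype mice and rose by 2.98 ± 0.48 (adjusted p 0.00988). Bckdhb, an enzyme of branched-chain amino acid breakdown, had 0.35, -0.05 and 0.01 in IFNAR-/- mice, against -1.79, -1.75 and -1.42 in wildtype mice, and the uncharacterised Fam241b had 0.66, 0.38 and 0.83 in IFNAR-/- mice, against -0.68, -0.77 and -0.98 in wildtype mice. All IFNAR-/- arrays lay above all wildtype arrays in these 3 rising genes, and Bckdhb and Fam241b rose by 1.76 ± 0.18 and 1.43 ± 0.15 (adjusted p 0.00115 and 0.00116). Of the genes outside the lists that are named here, from Car9 to Fam241b, all but Bex1 passed whichever array was left out.

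The genotype difference at day 14 was set against that at day 7. At day 7 481 genes passed (2.64%), 235 higher (1.29%) and 246 lower (1.35%), and 75 of them passed at both days, which is 8.18% of the day 14 calls and 15.6% of the day 7 calls. Of these 75 genes 34 were lower and 17 higher at both days, while 16 were higher at day 14 and lower at day 7 and 8 were the reverse. The test of the change itself called 451 genes (2.48%), 208 upward and 243 downward. Among the 917 day 14 calls it passed for 252, 111 of the higher and 141 of the lower ones. For type I interferon-stimulated genes 31 of 52 had been lower at day 7, with a median of -1.37, and 11 moved upward by day 14. Oas1a was at -3.50 ± 0.21 at day 7, a change of 1.70 ± 0.30 (adjusted p 0.0181), while Ifit1 had not passed at day 7, at -0.84 ± 0.44 (0.474). Medians of the T cell and cytotoxic lists had opposite signs on the 2 days. T cell marker medians were -0.44 at day 7 and 0.62 at day 14, with 8 of 22 members past the test of the change. Cytotoxic gene medians were -0.90 and 0.91, with 9 of 20. MHC class II genes also had opposite signs, at medians of -0.41 and 0.44 with 8 of 17 past that test. B and plasma cell markers did not, at medians of 0.04 and 0.20 with 0 of 19 past it. The share over all genes was 1.14% upward.

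Il1b was, at day 7, at -0.30 ± 0.21 (adjusted p 0.669), and changed by 2.66 ± 0.30 (0.00523). Cxcl9 was -2.64 ± 0.52 at day 7 (0.0236) and 2.18 ± 0.52 at day 14, a change of 4.82 ± 0.74 (0.0115). Cd163 ran the other way, at 1.05 ± 0.54 (0.452) and -3.33 ± 0.54, a change of -4.38 ± 0.76 (0.0181). Angptl4 passed at both days with opposite signs, 0.98 ± 0.19 (0.021) and -1.10 ± 0.19. Car9, Prdx2, Glb1, Cd300ld, Ccr1 and Bckdhb passed at both days with the same sign and without a change past the threshold. The test of the change was passed by 3 genes once the 5' over 3' signal was added to the fit, and by 175 with the poly-A signal.

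**Figure D5:**
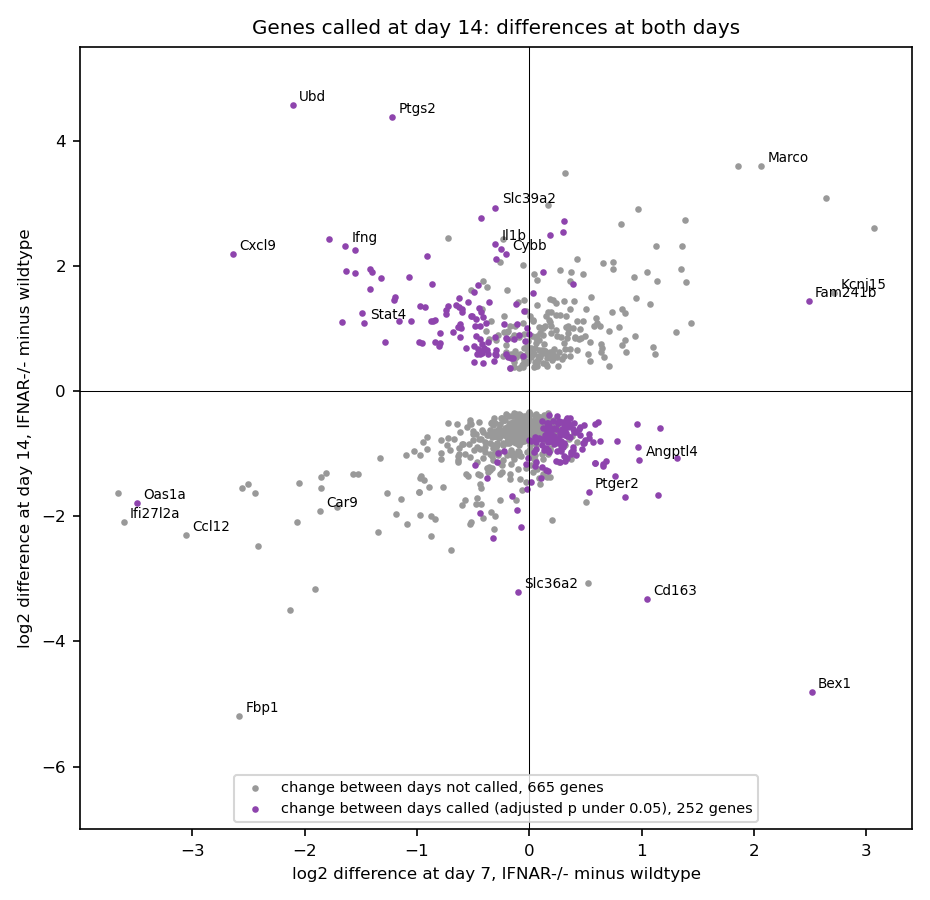
Each point is 1 of the 917 genes called at day 14, with its log2 difference (IFNAR-/- minus wildtype) at day 7 on the horizontal axis and at day 14 on the vertical axis. Purple points are the 252 genes whose difference changed between the days at an adjusted p under 0.05; Cxcl9 and Ubd lie upper left, Cd163 and Bex1 lower right, and Car9 and Oas1a lower left.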

How the data were processed

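RNA of sorted CD11c+ lung cells had been hybridised to 1-colour Affymetrix mouse arrays and summarised with RMA, per the submitters' processing notes. The deposited value of each probe set is a linear ratio; the values show that the authors' ratio is to about the probe set's median over the 12 arrays, since 100.0% of the medians lie within 0.02 of 1, and the division itself is not stated in the sources used here. Absolute signal and background are therefore unknown, and precision is limited by the number of arrays. Of 45101 probe sets, 34945 had 1 gene symbol in the platform annotation, 932 several and 9160 none, beside 64 controls, and 34741 symbols were updated or matched by Entrez identifier. Log2 ratios of probe sets with 1 symbol were averaged per symbol into 18193 genes, 9183 of them from 1 probe set. No per-array column was left unused (0), and no pair of arrays shared more than 0.313% of values.

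Genes were tested with limma 3.58.1 in R 4.3.3 (means of the 4 groups over 12 arrays, 8 residual and 3.21 prior degrees of freedom, prior SD 0.171), with Benjamini-Hochberg adjustment over all genes and a threshold of 0.05. The change between days is the interaction term. On simulated data with the same design the fit called 30%, 66%, 92% and 98% of 50 genes each changed by 0.5, 1, 2 and 3 at day 14, and 5 of 17993 unchanged genes. The simulated noise was independent, with 1 spread per gene over all arrays and no control signal that separates the genotypes. The simulated shares therefore do not measure the error rate in these data, where the spread differed between arrays. Each replicate is a separate mouse per the labels. Same-numbered mice of the genotypes did not deviate together at day 14 (correlations -0.237, -0.06 and 0.232), so numbers were not used as pairs. Named genes were the 12 largest non-overlapping rises and falls, the 6 of each with the lowest p, up to 4 rises and 4 falls with the lowest p of each of 54 lists, and 13 fixed genes; other genes are marked where they appear. The comparison, lists and tests were chosen with earlier results of these data known. Alternatives were other normalizations and probe set rules, a filter, a robust prior, array weights, a replicate block, control signals as covariates and arrays left out. Promoters were taken from RefSeq (GRCm38.p6).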

Additional observations from a re-analysis of the deposited data

Results flagged for a closer look

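The genotype difference (IFNAR-/- minus wildtype) changed between day 7 and day 14, by limma's interaction term with Benjamini-Hochberg adjustment, for 65 of the genes taken by the naming rule and 18 genes named outside it, and the values here are that change on the log2 scale. Upward changes among inflammatory mediators and enzymes were Ptgs2 5.61, Il1b 2.66, Il1a 2.41, Cxcl2 2.24, Cxcl9 4.82 and Osm 2.15. Receptors, complement and oxidase genes gave Ccrl2 2.32, Cx3cr1 1.65, Cxcr3 1.96, Cxcr6 3.82, Ccr7 2.07, Fpr2 1.33, Cybb 2.40, Cfb 2.09 and C1ra 1.97, and immediate-early and NF-kB genes Nr4a1 3.20, Fosb 2.53, Dusp2 1.90, Btg2 1.51 and Tnfaip2 1.03. Lymphocyte and interferon gamma genes gave Ubd 6.68, Ifng 3.96, Cd3g 3.44, Cd8b1 3.37, Cd27 1.35, Ctsw 3.12, Fasl 2.58, Klrg1 2.07, Il2rb 1.76 and Stat4 2.56. Antigen presentation and dendritic cell genes gave H2-Oa 2.90, H2-DMb2 1.77, H2-Ab1 1.46, Cd74 0.86, Ciita 1.62, Cd83 2.04, Fscn1 1.62 and Rogdi 1.04. Other upward changes were Slc39a2 3.24, Oas1a 1.70, Slc2a6 2.00, Pfkp 1.72, Hk1 1.17 and Pole 1.27. Of the genes chosen after their values were seen, those with such a change were Nr4a2 2.75, Ier3 1.97, Atf3 1.47, Csrnp1 0.95, Nfkbie 1.63 and Traf1 2.19, then Nkg7 4.22, Gzmb 4.15, Thy1 3.55, Cd3d 3.05, Cd6 1.10, Gimap7 1.48, Trav9d-3 1.98 and Trbv1 2.28, and Clec7a 0.97 and Mx1 3.02, of which Clec7a, Mx1 and Gzmb were not called at day 14.

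Downward changes among macrophage, lysosomal and receptor genes were Cd163 -4.38, Folr2 -1.53, Ctsl -1.80, Ptger2 -2.14, Ifngr1 -1.28, Il1r1 -0.99 and Ticam1 -1.16. Genes of lipid, iron and glutathione metabolism gave Angptl4 -2.08, Plin2 -1.42, Hadh -0.84, Ireb2 -1.19 and Gsto1 -1.02. Other downward changes were Bex1 -7.33, Slc36a2 -3.11, Ifnb1 -2.92, Rps9 -2.10, Msx3 -2.02, Gtsf1 -1.51, Scn3a -1.25, Fam241b -1.06 and Cdk20 -0.71. Chosen after their values were seen were Mrpl44 -1.02 and Mrps12 -0.97. In Ifnb1 the difference lay at day 7 and not at day 14, and in Fam241b it was positive on both days. H2-Ab1 and Ifnb1 were not called at day 14.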

How the results depend on the processing

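The count of 917 genes at day 14 came to 737 after another quantile normalization, 921 with array medians subtracted, 1255 with each gene's most variable probe set, 852 among the more variable genes and 914 with a robust prior, all within 1.5 times. It was 1855 over every probe set by itself (34945 tests), 1899 with array weights, 37 with the 5' over 3' covariate (17 higher, 20 lower), 831 with the poly-A covariate, 362 from the day 14 arrays alone (298 of the 917) and 310 with a difference of at least 1. Without 1 day 14 array it ran from 384 (without wildtype mouse 2 or 3) to 794 (without IFNAR-/- mouse 2), and was 555 without IFNAR-/- mouse 1 and 515 without IFNAR-/- mouse 3. Without IFNAR-/- day 14 mouse 2 and IFNAR-/- day 7 mouse 3, which stand apart, 932 genes passed, 50.1% of them higher, against 34.7% with all arrays. The change between days, with 451 genes, gave 845 over every probe set, 1765 with array weights, 3 with the 5' over 3' covariate, 175 with the poly-A covariate (59.4% upward, against 46.1%), 296 with a change of at least 1, and 138 to 485 without 1 array, lowest without IFNAR-/- day 7 mouse 2. The causes of these shifts were not tested, apart from the number of tests, samples or thresholds that an alternative itself sets. With the replicate number as a block 679 genes passed at day 14 (630 of the 917) and 325 for the change; this is a hint from the numbers, which do not pair the mice. All 917 genes kept their sign in the fits with the 5' over 3' or the poly-A covariate. They also did with weights or block, from day 14 alone and without both arrays, but there the outcome was nearly fixed. The block and the day 14 fit leave the difference itself unchanged. Arrays did not overlap for 318 higher and 598 lower calls, so weights or left-out arrays could not turn the sign of these. Among the called named genes 2126 of 2872 recomputed values kept call and sign, 746 lost the call and 0 reversed. For the values without 1 array the sign could likewise not turn in genes whose arrays did not overlap. Of 918 recomputed list medians 142 moved by more than 1 SD. The sign of Ifnar1, not called, turned to 0.078 after quantile normalization, 0.189 with array weights and 0.232 without both arrays, and ran from -0.468 to 0.232 without 1 array. Ifnb1, not called, turned to -0.016, -0.092 and -0.035 in the same fits and to -0.051 with the poly-A covariate, and ran from -0.11 to 0.263 without 1 array.

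With 3 mice per genotype 3819 genes had an unadjusted p under 0.05, against the 917 called. Ratios carry no background, so genes near it could not be filtered. The 5' over 3' signal did not overlap between genotypes at day 14, so its part and that of genotype cannot be fully told apart.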

Other observations

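Gene families grouped by symbol were chosen after their values were seen, and some showed falls that the lists above did not hold. They were not recounted with arrays left out or with control signals in the fit. Of 76 mitochondrial ribosomal protein genes (Mrpl and Mrps) 11 fell (14.5%) and 0 rose in limma, with 66 differences below 0 and a median of -0.25, beside 3.29% lower among all genes. Mrpl22, Mrpl44, Mrps12, Mrps22 and Mrps23 were among them, at -0.68 ± 0.11, -0.70 ± 0.13, -0.86 ± 0.16, -0.68 ± 0.13 and -0.52 ± 0.12. Of 336 zinc finger genes named Zfp 27 fell (8.04%) and Zfp36 rose, with 241 below 0 and a median of -0.13. Zfp36, which speeds the decay of cytokine messages, is of another type than the DNA-binding members of this name. Of 31 Mediator subunits, which link transcription factors to RNA polymerase, Med4, Med10, Med22 and Med31 fell (12.9%), with 21 below 0 and a median of -0.07. Of 218 transmembrane genes named Tmem 8 fell (3.67%), near the share of all genes, with 116 below 0 and a median of -0.04. Of 17 Gimap and T cell receptor segment genes 4 rose, namely Gimap3, Gimap7, Trav9d-3 and Trbv1, beside 1.75% higher among all genes. The family's median was 0.61, and 6 of the 17 differences were below 0.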
